A study of Mus musculus with 6 samples.

Results

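The 8 genes described here, Anxa1, Ndnf, Igf1, Vcan, Lmo3, Atp2a3, Fgf1 and Cd24a, mark dopamine neurons of the substantia nigra over those of the ventral tegmental area, enzymes, channels and transcription factors aside. They were taken by name from a table of 23079 genes. Of them, 7 were found under their own symbol, and Ndnf was found by its gene identifier, 68169, because the table carries it under the older symbol A930038C07Rik. All 8 passed the low-count filter and were among the 16766 genes tested.

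The knockdown libraries came from midbrain dopaminergic neurons of C57BL/6 mice of the Dat bacTRAP line, aged 4 months, that received adeno-associated virus of serotype 1 (AAV1) with a short hairpin RNA against Satb1 and EGFP. The control libraries came from mice of the same line and age that received the same virus with a scrambled hairpin and EGFP. There were 3 knockdown and 3 control libraries. Dat bacTRAP mice carry a tagged ribosomal protein in cells that express the dopamine transporter, but the labels name total RNA and state no ribosome capture. Both nigra (SNpc) and ventral tegmental area (VTA) were dissected from 1 mm slices, and no label says which region a library holds. The labels give 3 mice for the 6 libraries without tying them together, so a p-value here reflects how these libraries vary, and that variation may be technical.

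Dopamine neurons of the substantia nigra pars compacta lie in a dorsal and a ventral tier. Those of the ventral tier send axons to the dorsal striatum, express Aldh1a1 and Sox6, and are among the first cells lost in Parkinson disease. Neurons of the dorsal tier and of the ventral tegmental area more often carry calbindin or Otx2 and are relatively spared. The genes here are used to tell these populations apart, and they encode secreted growth factors (Fgf1, Igf1, Ndnf), proteins of the matrix and cell surface (Vcan, Cd24a) and proteins within the cell (Anxa1, Atp2a3, Lmo3).

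The knockdown libraries held 147487000 to 164555000 gene counts each and the control libraries 160793000 to 170351000 gene counts, rounded. Levels below are counts-per-million values (CPM), scaled with trimmed mean of M-values (TMM) factors, and 1 count was worth 0.00557 to 0.00672 CPM. Satb1, the chromatin organiser that was targeted, had 82.9, 166 and 61.2 CPM in knockdown libraries and 351, 350 and 320 CPM in control libraries, and knockdown library 2 kept the most of it (log2 fold change -1.72 ± 0.26, SE; edgeR, adjusted p = 0.00106). Th, which encodes tyrosine hydroxylase, was abundant in every library, with 2118 to 2689 CPM in knockdown libraries and 3181 to 3763 CPM in control libraries. It was lower in the knockdown (log2 fold change -0.54, edgeR adjusted p = 0.00228). The dopamine transporter gene Slc6a3 was lower as well (-0.72, edgeR adjusted p = 0.00159).

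The ventral tier genes moved in both directions. With Satb1 reduced, 3 of the 8 fell, Atp2a3, Igf1 and Anxa1, 2 rose, Fgf1 and Cd24a, and 3 did not pass the test, Ndnf, Lmo3 and Vcan. In bulk libraries fewer cells of a type and less RNA per cell cannot be told apart. The test was the quasi-likelihood test of edgeR with Benjamini-Hochberg adjustment over all genes tested and a threshold of 0.05. Over all genes it called 21.1%, with 8.48% higher and 12.6% lower. Knockdown and control libraries did not overlap for 7 of the 8 genes, 4 of them higher and 3 lower in the knockdown. Of all tested genes 38.7% did not overlap, 17.9% higher and 20.8% lower. The median log2 fold change (knockdown over control) was 0.09 for the 8 genes and 0.01 for all tested genes.

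The 250 bases upstream of the RefSeq start used for each of the 3 genes that fell (GRCm38.p6) are shown because these genes moved the same way. Capitals mark the TATA box motif TATAAA, the CCAAT box and the GC box motif GGGCGG, each on either strand, and neighbouring GC box motifs can overlap.
Anxa1, chr19:20390672-20390921, minus strand: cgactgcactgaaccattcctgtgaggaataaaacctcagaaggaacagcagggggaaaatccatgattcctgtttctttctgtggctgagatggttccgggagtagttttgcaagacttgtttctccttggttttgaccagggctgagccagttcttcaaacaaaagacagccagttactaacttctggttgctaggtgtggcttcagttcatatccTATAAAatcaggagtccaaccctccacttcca
Igf1, chr10:87860861-87861110, plus strand: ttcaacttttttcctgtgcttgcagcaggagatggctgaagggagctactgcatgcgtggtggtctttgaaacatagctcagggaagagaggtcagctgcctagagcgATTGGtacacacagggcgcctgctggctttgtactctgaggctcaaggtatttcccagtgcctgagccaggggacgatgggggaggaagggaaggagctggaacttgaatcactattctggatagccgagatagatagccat
Atp2a3, chr11:72960919-72961168, plus strand: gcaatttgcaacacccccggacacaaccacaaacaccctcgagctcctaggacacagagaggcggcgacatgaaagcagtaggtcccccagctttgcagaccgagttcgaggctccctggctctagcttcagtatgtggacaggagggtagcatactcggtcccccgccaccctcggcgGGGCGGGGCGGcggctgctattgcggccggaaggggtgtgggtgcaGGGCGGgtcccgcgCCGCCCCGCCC

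The Anxa1 window held 1 TATAAA, the Igf1 window 1 CCAAT box on the opposite strand and the Atp2a3 window 5 GC box motifs. Of 27025 such windows, 13.0% held the TATA box motif, 34.5% the CCAAT box and 32.9% the GC box motif. Satb1 binds AT-rich DNA, and A and T made up 54% of the Anxa1 window, 47.2% of the Igf1 window and 33.2% of the Atp2a3 window, where the median over all windows was 48%. A run of at least 8 A or T was found in the windows of Anxa1 and of Lmo3, which did not pass the test, and not in those of Igf1, Atp2a3 and Vcan, and 40.6% of all windows have one. The run in the Anxa1 window includes its TATAAA match. Among the genes that did not pass the test, A and T made up 50% of the Lmo3 window and 37.6% of the Vcan window. These matches describe the letters of a short window and say nothing of binding. RefSeq windows were used for 5 of the 8 genes. Fgf1 and Cd24a, the genes that rose, and Ndnf were not among them, so genes that fell were not compared with genes that rose.

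Fgf1 and Igf1, both growth factor genes, went in opposite directions. Fgf1 encodes acidic fibroblast growth factor, a heparin-binding ligand that lacks a classical signal peptide and can activate every fibroblast growth factor receptor. It had 311, 312 and 335 CPM in knockdown libraries and 183, 193 and 178 CPM in control libraries. The groups were far apart compared with the spread within each, and Fgf1 had the smallest p of the 8 genes. Its mean was 319 ± 13.3 CPM in the knockdown and 184 ± 7.68 CPM in the control (SD, n = 3 each), a 1.73-fold increase (log2 0.79 ± 0.09 SE, edgeR adjusted p = 0.000267). Fgf1 (identifier 14164) spans bases 38838672 to 38929470 of chromosome 18, minus strand, in GRCm38, the build of all coordinates given.

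Igf1 encodes insulin-like growth factor 1, a secreted ligand of the receptor Igf1r that promotes growth and survival of neurons. It had 49.1, 61.1 and 43.0 CPM in knockdown libraries and 72.0, 77.4 and 76.4 CPM in control libraries. The groups did not overlap, and knockdown library 2 lay nearest to the control. The mean was 51.0 ± 9.18 CPM in the knockdown and 75.3 ± 2.89 CPM in the control (SD, n = 3 each), or -0.56 ± 0.12 as log2 fold change (SE; edgeR, adjusted p = 0.00796). The gene (identifier 16000) spans 87858265 to 87937047 on the plus strand of chromosome 10, and the start used for the window above lies inside that span.

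Ndnf encodes a secreted glycoprotein with fibronectin type III repeats that was named for its support of cultured neurons. It had 71.7, 101 and 85.9 CPM in knockdown libraries and 68.6, 94.2 and 87.6 CPM in control libraries. The groups overlapped throughout, and in both of them library 1 was lowest and library 2 highest. The log2 fold change was 0.05 with a 95% interval of -0.26 to 0.35 (edgeR, adjusted p = 0.863), so that a change of the size seen for Igf1 lay outside this interval. It turned to -0.08 without knockdown library 2 or without control library 1. Ndnf lies on chromosome 6 from 65671611 to 65712323, on the plus strand.

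**Figure D1:**
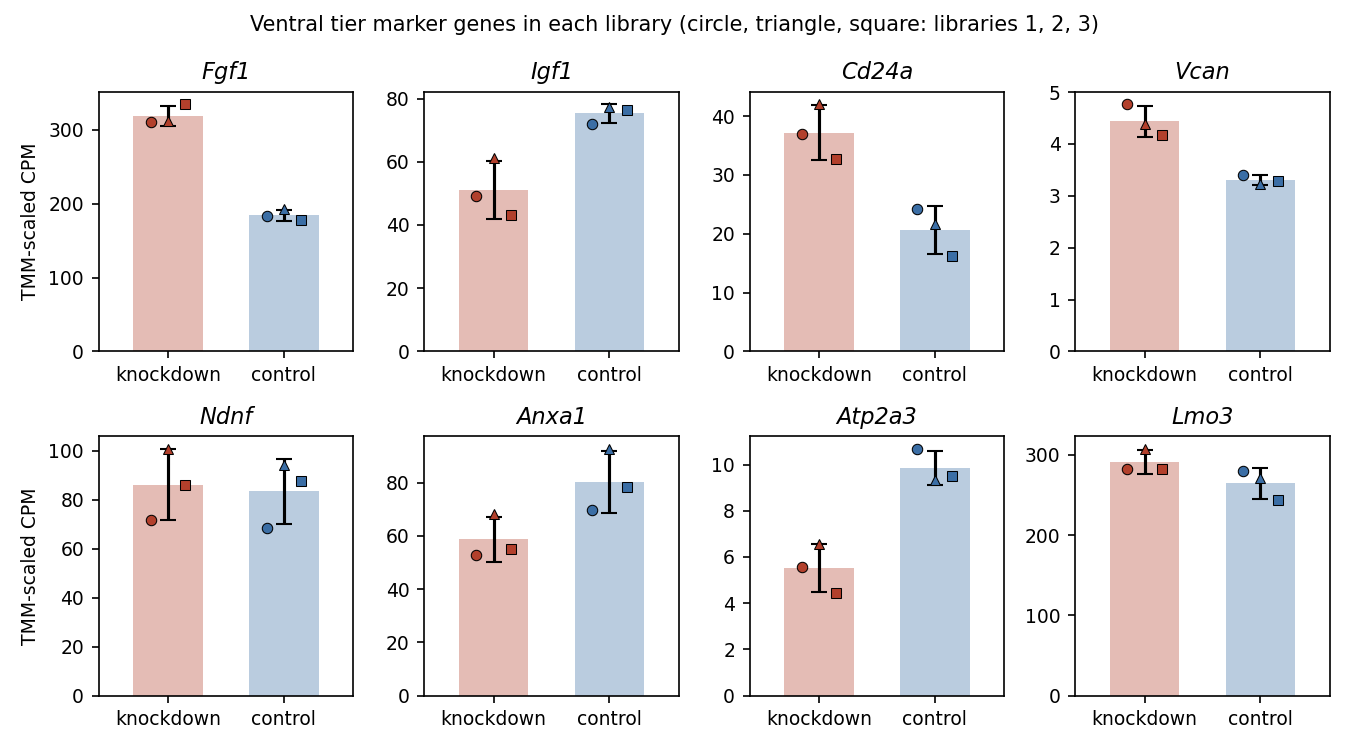
TMM-scaled counts-per-million values (CPM) of each of the 8 genes; bars are group means with the SD of 3 libraries, and symbols are the single libraries, with knockdown left of control. Fgf1 and Cd24a were higher in every knockdown library than in any control library, Igf1, Anxa1 and Atp2a3 were lower, and Ndnf overlapped between 71.7 and 94.2 CPM.

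At the cell surface and in the matrix, Cd24a rose and Vcan did not pass the test. Cd24a encodes a short, heavily glycosylated protein held in the membrane by a lipid anchor and found on immature neurons, blood cells and ependymal cells. It had 36.9, 42.0 and 32.6 CPM in knockdown libraries and 24.1, 21.6 and 16.2 CPM in control libraries. The groups did not overlap, although the control libraries spread more widely than for Fgf1. Its mean was 37.2 ± 4.68 CPM in the knockdown and 20.7 ± 4.04 CPM in the control (SD, n = 3 each), or 0.85 ± 0.15 as log2 fold change (SE; edgeR, adjusted p = 0.00249). Cd24a (identifier 12484) lies on chromosome 10 from 43579169 to 43584265 on the plus strand. One other gene of the annotation, Gm6212, shares 218 bases with its transcript at 96.8% identity, and how the authors counted reads with several alignments is not given in the sources used here, so that its level is uncertain to that extent.

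Vcan encodes versican, a large chondroitin sulfate proteoglycan of the hyaluronan matrix that is also made by oligodendrocyte precursors. It had 4.76, 4.39 and 4.17 CPM in knockdown libraries and 3.40, 3.22 and 3.28 CPM in control libraries, from 664 to 855 counts in knockdown and 488 to 553 counts in control libraries. All knockdown libraries lay above all control libraries, but the change did not pass the test. The log2 fold change was 0.43 with a 95% interval of -0.03 to 0.89 (edgeR, adjusted p = 0.178). The gene (identifier 13003) spans 89655309 to 89743027 on the minus strand of chromosome 13.

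Within the cell, both calcium-linked genes fell. Atp2a3 encodes SERCA3, a pump that returns calcium from the cytosol to the endoplasmic reticulum. It had 5.55, 6.57 and 4.46 CPM in knockdown libraries and 10.7, 9.32 and 9.51 CPM in control libraries. The groups did not overlap, and Atp2a3 had the most negative fold change of the 8 genes. Its mean was 5.53 ± 1.05 CPM in the knockdown and 9.84 ± 0.741 CPM in the control (SD, n = 3 each), or -0.83 ± 0.18 as log2 fold change (SE; edgeR, adjusted p = 0.00748), which is 1.78-fold. It rests on 710 to 1009 counts in knockdown libraries and 1414 to 1738 counts in control libraries. The gene (identifier 53313) spans 72961169 to 72993043 on the plus strand of chromosome 11.

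Anxa1 encodes annexin A1, which binds membrane phospholipids when calcium is present and marks a subset of Aldh1a1 neurons in the ventral tier. It had 52.9, 68.3 and 55.0 CPM in knockdown libraries and 69.8, 92.8 and 78.2 CPM in control libraries. The groups did not overlap, but knockdown library 2 and control library 1 nearly met. The mean was 58.7 ± 8.38 CPM in the knockdown and 80.3 ± 11.6 CPM in the control (SD, n = 3 each), or -0.45 ± 0.13 as log2 fold change (SE; edgeR, adjusted p = 0.0271). This call was lost without knockdown library 1 (adjusted p = 0.131), knockdown library 3 (0.0848), control library 2 (0.14) or control library 3 (0.0544), and with total-count scaling (0.122), and the sign stayed negative in each of these fits. Anxa1 (identifier 16952) spans bases 20373434 to 20390671 of chromosome 19, minus strand.

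Lmo3 encodes a LIM-only protein, which has no DNA-binding domain and joins transcription factors through cofactors such as Ldb1. It had 282, 308 and 282 CPM in knockdown libraries and 280, 271 and 243 CPM in control libraries. The groups were separated by less than the spread within either of them. The log2 fold change was 0.13 with a 95% interval of -0.06 to 0.33 (edgeR, adjusted p = 0.327), and with total-count scaling it was 0.30 and passed the test (adjusted p = 0.0319). Lmo3 (identifier 109593) spans 138362918 to 138582206 on the minus strand of chromosome 6.

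Per kilobase of merged exon length in GENCODE M21, the order of the levels in control libraries was Lmo3, Fgf1, Anxa1, Ndnf, Cd24a, Igf1, Atp2a3 and Vcan. The control levels were 51.5 ± 3.75 CPM per kilobase for Lmo3, 33.7 ± 1.41 for Fgf1, 27.6 ± 3.99 for Anxa1, 8.25 ± 1.32 for Ndnf, 8.01 ± 1.57 for Cd24a, 7.60 ± 0.292 for Igf1, 1.86 ± 0.140 for Atp2a3 and 0.228 ± 0.00637 for Vcan (SD, n = 3). The neighbours Ndnf, Cd24a and Igf1 did not differ beyond their spread. In knockdown libraries Fgf1 (58.4 ± 2.44) and Lmo3 (56.6 ± 2.90) stood side by side at the top, Cd24a (14.4 ± 1.81) was above Ndnf (8.52 ± 1.44), and Igf1 was at 5.15 ± 0.927 (SD, n = 3).

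Library by library, knockdown library 2, which kept the most Satb1, was the highest knockdown library for 6 of the 8 genes, whether they rose, fell or did not pass the test. Against the control mean, the log2 change in knockdown libraries 1 to 3 was -0.83, -0.58 and -1.14 for Atp2a3, -0.62, -0.30 and -0.81 for Igf1, and -0.60, -0.23 and -0.55 for Anxa1, beside -2.04, -1.03 and -2.47 for Satb1. It was 0.84, 1.02 and 0.66 for Cd24a, -0.22, 0.27 and 0.04 for Ndnf, and 0.09, 0.22 and 0.09 for Lmo3. The exceptions were Fgf1 (0.75, 0.76 and 0.86) and Vcan (0.53, 0.41 and 0.34). The medians of the other nigral genes (-0.66, -0.34 and -0.60) and of the dopamine identity genes (-0.45, -0.30 and -0.47) were also highest in knockdown library 2. In both of these lists many genes fell. Of the called genes that rose, Cd24a was highest in knockdown library 2 and Fgf1 was not. With 3 libraries this is a description only.

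**Figure D2:**
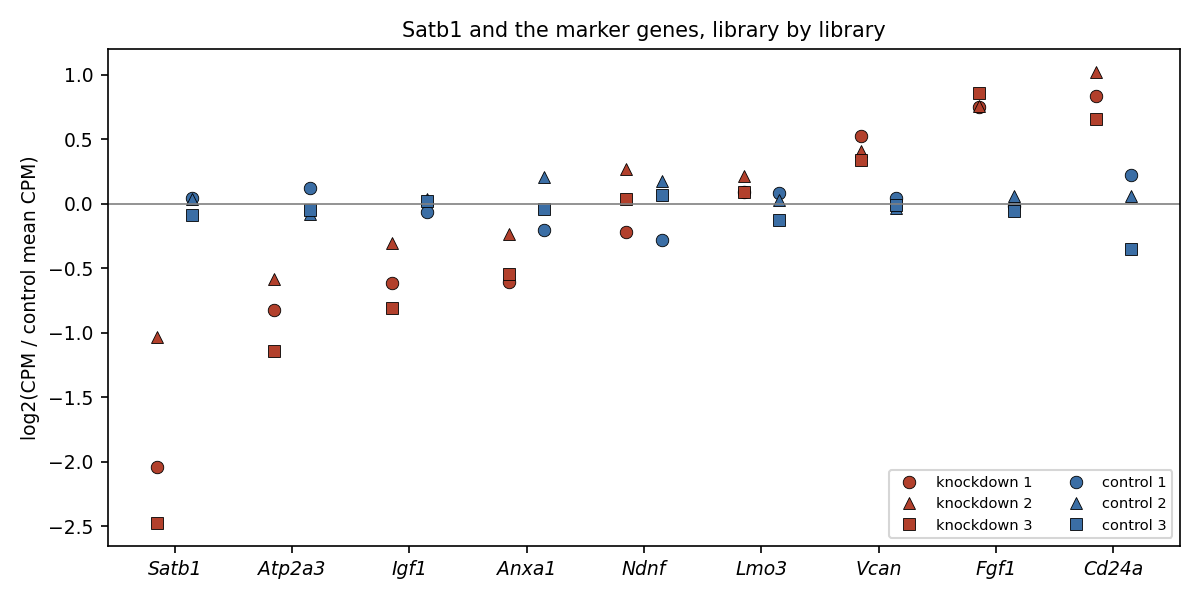
Log2 ratio of CPM to the control mean for Satb1 and the 8 genes in each library, with knockdown libraries left of control libraries for each gene. Knockdown library 2 (triangle) was the highest knockdown library for Satb1 (-1.03) and for 6 of the 8 genes, Atp2a3, Igf1, Anxa1, Ndnf, Lmo3 and Cd24a, and not for Vcan and Fgf1.

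The ratio of 2 genes within a library does not depend on how libraries are scaled. The log2 ratio of Anxa1 to Ndnf counts was -0.44, -0.56 and -0.64 in knockdown libraries and 0.03, -0.02 and -0.16 in control libraries, a mean difference of -0.49. The log2 ratio of Fgf1 to Cd24a was 3.08, 2.89 and 3.36 in knockdown libraries and 2.92, 3.16 and 3.45 in control libraries, and these overlapped. A two-sided exact permutation test gave p = 0.1 for the first ratio, the smallest that 3 against 3 libraries allow, and p = 0.7 for the second. These were 2 of 28 pairs computed. Most of the pairs gave p = 0.1 in this permutation test, and 0.7 was the largest p among them. None can pass an adjustment at this size.

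Many genes of dopamine neurons in general were lower in the knockdown. Of 22 dopamine identity genes 13 fell and 9 did not pass, with a median log2 fold change of -0.37. When libraries were scaled so that the median ratio over this list was level, the median of all genes moved to 0.42, and Anxa1, Igf1 and Atp2a3 no longer passed the test. The log2 fold change was then -0.06 for Anxa1 (edgeR, adjusted p = 0.773), -0.17 for Igf1 (0.347) and -0.44 for Atp2a3 (0.1), which kept its direction with a 95% interval of -0.87 to -0.01. On the same scale 5 of the 8 genes were called higher: Cd24a (1.23), Fgf1 (1.20), Vcan (0.84), Lmo3 (0.53) and Ndnf (0.44). In that fit 5934 of 16766 genes were higher and 315 lower.

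**Figure D3:**
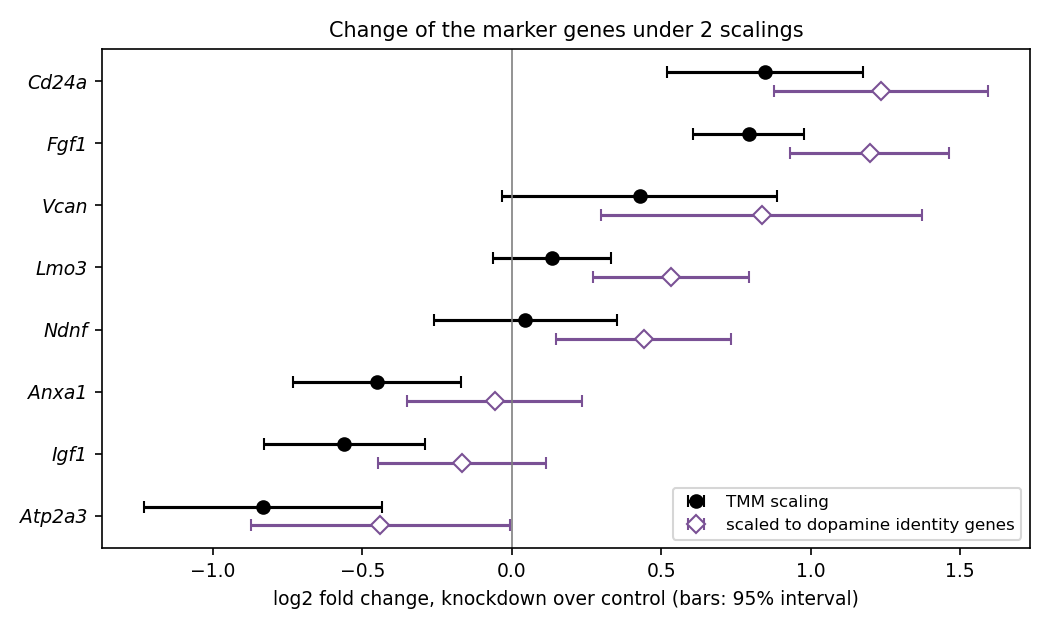
Log2 fold change, knockdown over control, of the 8 genes with 95% intervals from edgeR, with TMM scaling (filled circles) and with scaling to the dopamine identity genes (open diamonds). Anxa1 moved from -0.45 to -0.06 and Igf1 from -0.56 to -0.17 between the scalings, and the intervals of Fgf1 and Cd24a stayed above 0 in both.

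Other genes enriched in the nigra mostly fell. Of 12 such genes, 7 fell, 1 rose and 4 did not pass, with a median log2 fold change of -0.56, where 12.6% of all tested genes fell. One of the 7, Slc6a3, also belongs to the list of dopamine identity genes, so these lists are not separate. The smallest p-values were those of Kcnd3 (-0.99), a subunit of A-type potassium channels, Aldh1a7 (-1.14) and Aldh1a1 (-0.79), the retinaldehyde dehydrogenase that defines the ventral tier, which had 3376 ± 530 CPM in the knockdown and 5839 ± 741 CPM in the control (SD, n = 3 each). The gene that rose, Agtr1a, an angiotensin receptor, had 2.24 CPM in the knockdown and 1.02 CPM in the control, and its call was kept without knockdown library 3 but lost when any of the other 5 libraries was left out. Sox6, the transcription factor of these neurons, was at -0.27 and did not pass (edgeR, adjusted p = 0.181).

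Of 17 genes of the ventral tegmental area and dorsal tier, 2 rose and 2 fell, with a median of 0.07. Calb2, the calcium buffer calretinin, rose (0.61), as did the peptide gene Cartpt (0.65), and the transcription factor gene Neurod6 (-0.67) fell. The call for Cartpt was lost without knockdown library 1, control library 1 or control library 3, which left 1 gene called higher. Without knockdown library 1 or control library 2 no gene of this list was called lower, and 1 was without knockdown library 2 or control library 3 and 4 without control library 1. Whether the 8 genes differ from either list was not tested.

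**Figure D4:**
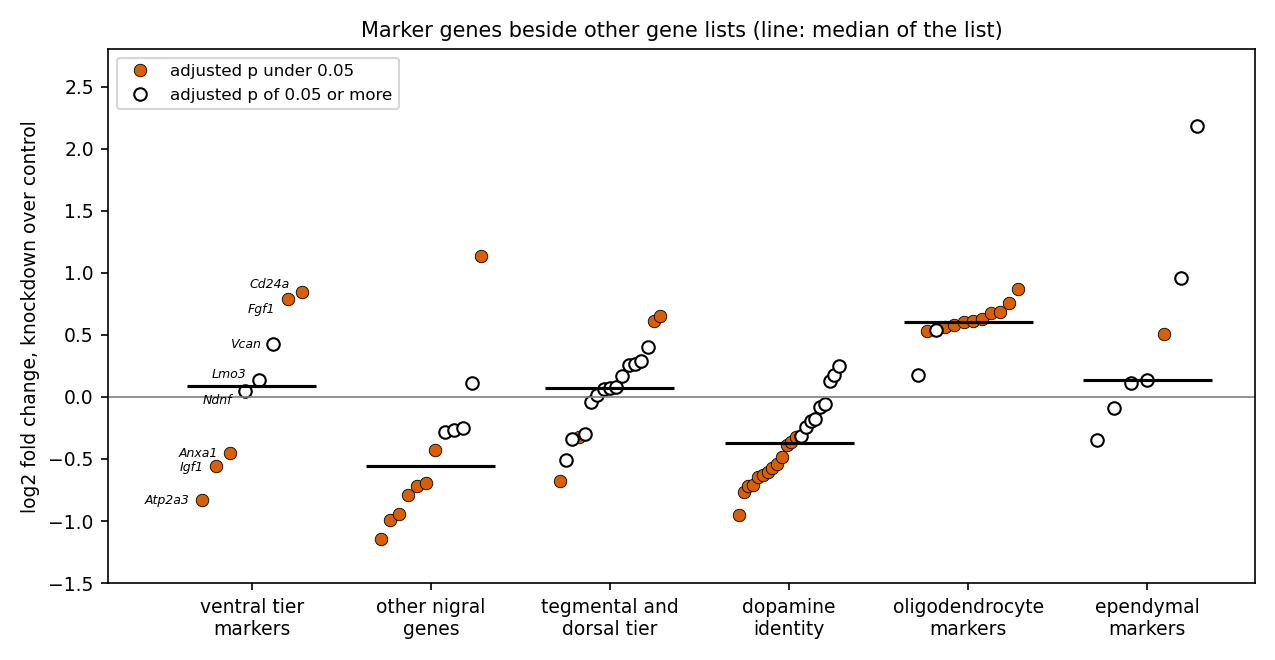
Log2 fold change, knockdown over control, of every tested gene in the 8 ventral tier markers and in 5 other lists, with filled points for genes with an adjusted p under 0.05 and a line at each list's median. The 8 genes spread from -0.83 to 0.85 around a median of 0.09, while the other nigral genes had a median of -0.56 and oligodendrocyte markers one of 0.60.

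Several of the 8 genes are also expressed outside dopamine neurons, so markers of other cells are given beside them. Oligodendrocyte markers were higher in the knockdown: 10 of 12 rose, and their summed level was 675 to 753 CPM in knockdown libraries and 429 to 495 CPM in control libraries, a ratio of means of 1.52, where that of Fgf1 was 1.73. Between 7 and 9 rose when 1 library was left out. Precursor markers summed to 47.5 to 62.3 CPM in knockdown libraries and 48.1 to 54.0 CPM in control libraries, and 1 of 6, Pdgfra, rose (log2 fold change 1.02), which was lost without knockdown library 3 or any one control library. Vcan was at 0.43. Ependymal markers summed to 42.4 to 48.6 CPM in knockdown libraries and 35.9 to 37.1 CPM in control libraries, and their median log2 fold change was 0.14. Most of each sum was a single gene, Rarres2, with 33.3 CPM in the knockdown and 23.4 CPM in the control. The higher sum therefore does not describe the list as a whole. Of the 7, Rarres2 (0.51) rose and 6 did not pass: Ccdc153 (2.19), Tekt1 (0.95), Dynlrb2 (0.14), Tmem212 (0.11), Foxj1 (-0.09) and Rsph1 (-0.35).

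Microglial markers, of cells that can express Anxa1 and Igf1, summed to 46.3 to 57.2 CPM in knockdown libraries and 53.0 to 57.9 CPM in control libraries. Most of this sum came from 2 markers that were lower in the knockdown. One was P2ry12, with 13.8 CPM in the knockdown and 18.9 CPM in the control. Every other marker of the 11 had a log2 fold change above 0, at lower levels, so the sum does not show them. Of 11, 2 rose, Csf1r and Trem2, and 2 fell, among them P2ry12, and the median was 1.00. These calls depended on single libraries: 4 markers were higher without knockdown library 2, 1 without control library 2 or 3 and 0 without the others, and 0 were lower without knockdown library 1, control library 2 or control library 3, and 1 without knockdown library 3 or control library 1. Astrocyte markers summed to 489 to 606 CPM in knockdown libraries and 460 to 566 CPM in control libraries, with 2 of 10 higher and 1 lower. Their median log2 fold change was 0.51. The largest parts of the sum were Aldoc, at 293 CPM in the knockdown and 237 CPM in the control, and Slc1a2, which fell from 245 to 177 CPM. Of the astrocyte markers 0 were called higher without knockdown library 1 or control library 3 and 1 without knockdown library 3 or control library 1. Endothelial markers summed to 10.1 to 16.1 CPM in knockdown libraries and 10.7 to 14.2 CPM in control libraries, and 1 of 9 rose, a call kept only without knockdown library 2 or control library 2. Mural markers summed to 5.45 to 14.2 CPM in knockdown libraries and 6.67 to 8.55 CPM in control libraries, and fibroblast markers to 1.78 to 5.59 CPM in knockdown libraries and 1.13 to 3.69 CPM in control libraries. No marker of these lists was at 0 in all libraries. The part of other cells in the levels of the 8 genes was not tested.

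Partners of the growth factors are given next, where 21.1% of all tested genes were called. Among 15 tested genes of insulin-like growth factor signalling, 1 rose and 14 did not pass. The one that rose was Igf2r, a clearing receptor for Igf2 that also sorts lysosomal enzymes, with 23.2 ± 2.46 CPM in the knockdown and 11.4 ± 1.03 CPM in the control (SD, n = 3 each; log2 fold change 1.02, edgeR adjusted p = 0.000504). Without knockdown library 2 there were 2 higher, and without knockdown library 3 or control library 1 there was 1 lower. DESeq2 called 3 higher and 1 lower. The receptor of the Igf1 ligand itself, Igf1r, was at 0.33 (edgeR, adjusted p = 0.0572).

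Among 17 tested genes of fibroblast growth factor signalling, 2 rose and 2 fell. Frs2, the adaptor that links activated receptors to downstream kinases, had 49.5 ± 8.91 CPM in the knockdown and 97.3 ± 5.28 CPM in the control (SD, n = 3 each; log2 fold change -0.98, edgeR adjusted p = 0.000503). The receptor gene Fgfr2 rose (0.60), and so did Spry2 (0.57), a feedback inhibitor, whose call was lost without knockdown library 1, control library 1 or control library 2, leaving 1 gene called higher. The genes called lower were 4 without knockdown library 2 and 1 when any of the other 5 libraries was left out, and DESeq2 called 4.

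Relatives of the matrix and calcium genes went both ways. Of 19 tested genes of the hyaluronan matrix 3 rose and 2 fell: Hapln4, a link protein of perineuronal nets, rose (0.77), neurocan (Ncan) fell (-0.62), and aggrecan (Acan) rose (2.69) at a level of 0.955 CPM in the knockdown and 0.147 CPM in the control. The call for Acan was lost without knockdown library 1 or 3 or control library 2 or 3, which left 1 gene higher, and 1 gene was called lower when a library other than control library 3 was left out. Of 24 genes of calcium stores and pumps 4 rose and 1 fell. The chaperone gene Calr fell (-0.49), its membrane-bound relative Canx rose (0.40), and the calcium release channel gene Itpr2 rose (1.25). When a library other than knockdown library 2 was left out, 2 of these genes were called higher. The abundant pump gene Atp2a2, a relative of Atp2a3, was at -0.18 with 338 CPM in the knockdown and 382 CPM in the control (edgeR, adjusted p = 0.181).

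Of 14 tested annexins, S100 partners and formyl peptide receptors, 2 rose and 1 fell. Anxa7 fell (-0.54) and Anxa5 rose (0.33), and Fpr2, a receptor of annexin A1, rose (2.35) at 1.15 CPM in the knockdown and 0.225 CPM in the control. Of this list 0 genes were called higher without knockdown library 1 or 3, 1 was when any control library was left out, and 2 were called lower without knockdown library 2, knockdown library 3 or control library 1. Of 14 LIM-domain partners 3 rose and 1 fell. The paralogs Lmo2 (0.78) and Lmo1 (0.90) rose. Of the cofactors, Ldb2 rose (0.44, edgeR adjusted p = 0.0163) and Ldb1 fell (-0.68). Without knockdown library 1, 1 gene of this list was called higher. Lmo1 lost its call without knockdown library 1 or control library 2, and Ldb2 without knockdown library 1, control library 1 or control library 3. Of 4 listed partners of Cd24a 2 were tested and 0 were called by edgeR, DESeq2 or limma-voom. The smaller p was that of L1cam, an adhesion molecule, at -0.21 (edgeR, adjusted p = 0.355, unadjusted p = 0.182).

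Genes with the most similar pattern were sought among those averaging 10 CPM or more, 8798 or 8799 for each gene, by the mean absolute difference of centred log2 CPM over the 6 libraries. The nearest were Dcaf12, Gclc and Hipk3 for Fgf1 (differences 0.04 to 0.05), Dlgap3, Gdap1l1 and the nicotinic receptor gene Chrnb3 for Igf1 (0.03), Higd2a, Sra1 and Nudt3 for Atp2a3 (0.03), Smad4, Nsdhl and Pibf1 for Anxa1 (0.05), and Sox2ot, Lrrc8b and Pppde1 for Cd24a (0.06 to 0.09). The measure follows the group difference as well as the single libraries, and the search was run only for the called genes. No other of the 8 genes was among the nearest, but Atp2a3 and Vcan averaged under 10 CPM and could not be. Whether the 8 genes share a pattern was not tested.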

How the data were processed

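The authors deposited 1 table of raw counts per gene, as whole numbers, with 6 library columns. Per the submitters' processing notes, TopHat2 2.0.8 and mm10 were used. For the counting tool, strand and reads with several alignments, no statement is given in the sources used here. Groups and replicate numbers were read from titles, which say siRNA although the treatment text names hairpins. The main test was the quasi-likelihood test of edgeR 4.0.16 in R 4.3.3, two-sided, with TMM scaling, filterByExpr (minimum count 10, minimum total 15) and Benjamini-Hochberg adjustment over 16766 genes. Standard errors and 95% intervals were derived from the F statistic. On simulated counts for 16574 genes, changed genes recovered in the knockdown against control comparison were 83 of 100 at 2-fold and 52 of 100 at 1.5-fold, with 7 false calls. Changes were planted only in genes with an expected count of at least 100, and in fewer genes than were called in the data. Recovery for genes of lower count was not measured.

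Alternatives were RLE, total-count and dopamine identity scaling, other filters, DESeq2 1.42.0, limma-voom (limma 3.58.1), a robust dispersion, the replicate block and leaving out each library. The 8 genes, the lists and the rule for named genes (Satb1, Th, Slc6a3, at most 3 called genes per list by p, failing that the top gene, and the 3 nearest genes, passing over Gm and Rik models) were chosen with earlier results of these data known. Agtr1a, Sox6, Igf1r, Atp2a2, Ldb2 and the markers named were chosen after their values were seen. Promoter sequences and coordinates are from RefSeq (GRCm38.p6), the build also called mm10, and exon lengths from GENCODE M21, in which no exon of the 8 genes overlaps another gene. Replicates differed by more than sampling noise (chi-square per gene of 58.5 to 156). Intervals cover the spread between libraries. The values of 1 microglial marker are not reported here.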

Additional observations from a re-analysis of the deposited data

How the results depend on the processing

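Of the 8 genes, Fgf1 and Cd24a kept their direction and their call in all 15 alternatives, with a log2 fold change of 0.76 to 1.20 and 0.70 to 1.23. Scaling to the dopamine identity genes left 5 of the 8 higher and 0 lower, where TMM scaling gave 2 higher and 3 lower, and over all genes 5934 higher and 315 lower. Total-count scaling gave 2770 higher and 972 lower, so that 74.0% of the calls were higher against 40.2%, and moved the median of all genes to 0.18. Leaving out 1 library gave 804 to 1356 genes higher and 1132 to 2054 lower, 2 of the 8 higher in every case, and 2 to 3 lower. Ndnf ranged from -0.082 to 0.171 when 1 library was left out, negative without knockdown library 2 (-0.082) and control library 1 (-0.079), and L1cam turned to 0.21 with dopamine identity scaling. Neither gene passed the test in these fits, and the cause was not tested.

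With the replicate number as a block, 1924 genes were higher and 2789 lower and the calls among the 8 genes were unchanged. Same-numbered libraries deviated together with r = 0.34, 0.03 and 0.41 over 9471 genes. Knockdown libraries 1 and 3 correlated best with the control library of their own number. Crossed, r was -0.38 for knockdown library 1 with control library 3 and -0.36 for knockdown library 3 with control library 1. Knockdown library 2 correlated best with control library 1 (0.14). The labels tie no libraries together, so the main test used no pairing, although libraries 1 and 3 varied together by number. Over all 15 alternatives the called genes numbered 0 to 2 higher and 5 to 9 lower among the other nigral genes, 1 to 8 higher and 0 to 4 lower among the tegmental genes, and 1 to 11 higher among the partner lists other than those of annexins and Cd24a.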
